A study of Mus musculus with 30 samples.

Results

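The 10 genes studied here encode the smooth muscle contractile apparatus, and they were followed through 30 mouse ovary libraries. They are Acta2, Tagln, Myh11, Cnn1, Lmod1, Des, Actg2, Myl9, Mylk and Smtn, taken by symbol from a deposited table of 18022 genes. All 10 were listed and all 10 passed the filter on low values. Whole ovaries came from adult CD1 mice, an outbred stock, that were dosed for 10 days, with ovaries removed either directly afterwards (0 months) or 3 months later. Controls received vehicle. Others received DEHP, which is di(2-ethylhexyl) phthalate, at daily doses of 20 or 200 ug/kg/day, or DiNP, which is diisononyl phthalate, at 20 or at 100 ug/kg/day. With both times this made 10 groups of 3 libraries. Both compounds are phthalate plasticizers. The labels name no transgene or deletion in any group, and they do not say whether the libraries of a group came from separate mice, so p-values measure the spread between these libraries. Values are log2 CPM as deposited, read counts set relative to a library size. They summed to between 907668 and 1164840 CPM a library, so a further scaling between libraries is part of them.

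Smooth muscle contracts when calcium and calmodulin activate myosin light chain kinase, which phosphorylates the regulatory light chain and lets smooth muscle myosin pull on actin filaments. In the ovary such cells form the walls of arteries, lie in the medulla and toward the hilum, and surround larger follicles in the theca externa, where contraction has been tied to follicle rupture. Acta2 encodes vascular smooth muscle actin and Actg2 the enteric smooth muscle actin. Myh11 encodes the smooth muscle myosin heavy chain, Myl9 a regulatory light chain and Mylk myosin light chain kinase. Tagln (transgelin, also called SM22-alpha), Cnn1 (calponin 1) and Smtn (smoothelin) bind actin filaments, Lmod1 (leiomodin 1) nucleates them, and Des (desmin) forms intermediate filaments of muscle cells. Serum response factor with its coactivators myocardin and the myocardin-related factors drives many of these genes through a short DNA element, the CArG box.

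The smallest steps between deposited values corresponded to library sizes of approximately 24.6 to 41.3 M (M, mega, median 30.05 M). These sizes include the scaling and are not plain read numbers. Libraries of 1 group correlated at r = 0.939 or higher. The 3 libraries with the largest share of summed CPM in their 10 highest genes are called standing apart below. That share was 12.3% in replicate 3 of DiNP 100 at 3 months, 10.1% in replicate 3 of DEHP 200 at 0 months and 9.92% in replicate 2 of that group. Next came replicate 1 of DiNP 100 (9.43%) and replicate 3 of vehicle (9.18%) at 3 months, so the cut after 3 libraries was a choice. Reads of the coding parts of actin genes, and of Myl9 and its relatives Myl12a and Myl12b, are similar enough in sequence for transcript quantification to divide them between genes, so levels of Acta2, Actg2 and Myl9 carry that uncertainty.

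CArG boxes were looked for in the 250 bases before the RefSeq start of each gene (GRCm38.p6), since the members varied together between libraries, as described further on. The element has 2 C, then 6 bases that are A or T, then 2 G, and reads the same on both strands. No other motif was searched. Promoters of 7 of the 10 genes matched the RefSeq table, and those of Tagln, Myh11 and Actg2 did not. An exact box stood in 1 of the 7, Myl9. With 1 core base left free, boxes stood in 2, Acta2 and Myl9. Over 32851 promoters the shares were 1.47% with an exact box and 8.59% with 1 core base free. The 4 matches are printed 5′ to 3′ with the box in capitals and its flanks in lower case. Both Acta2 stretches lie on the minus strand of chromosome 19, at chr19:34255438-34255467 and chr19:34255388-34255417, and GENCODE M21 annotates both as untranslated exon of Acta2, since the RefSeq start used lies inside the annotated gene, as it does for Cnn1, Myl9 and Mylk. The Myl9 stretches lie on the plus strand of chromosome 2, at chr2:156775293-156775322 and chr2:156775355-156775384, with no exon of Myl9 annotated there. Their boxes begin 84 and 34 bases before the Acta2 start, and 161 and 99 bases before the Myl9 start. The box that begins 161 bases before Myl9 is the exact one.
Acta2 first box: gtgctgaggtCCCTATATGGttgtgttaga
Acta2 second box: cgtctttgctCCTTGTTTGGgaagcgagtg
Myl9 first box: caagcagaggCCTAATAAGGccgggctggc
Myl9 second box: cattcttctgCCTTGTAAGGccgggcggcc
A match describes these letters only, and the absence of one from this window says nothing of the factor.

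Per kilobase of exon, the 10 genes spread over a wide range of levels. Acta2 (chromosome 19, 34240336-34255585, GRCm38.p6) had the highest median over the 30 libraries, 236 CPM per kb. Tagln (chromosome 9, 45929628-45936058) followed with 164 CPM per kb and Myl9 (chromosome 2, 156775408-156781657) with 129 CPM per kb. Actg2 (chromosome 6, 83512909-83536251) stood at 56.5, Myh11 (chromosome 16, 14194527-14292188) at 46.4 and Mylk (chromosome 16, 34745199-35002436) at 43.2 CPM per kb. Smtn (chromosome 11, 3517522-3539292) had 25.8, Cnn1 (chromosome 9, 22099221-22109221) 14.4 and Des (chromosome 1, 75360292-75368579) 14.2 CPM per kb. Lmod1 (chromosome 1, 135324813-135368065) was lowest at 9.25 CPM per kb. The order was the same with the longest transcript in place of the merged exons. The non-muscle relatives of these proteins, many of them present in most cell types, lay on both sides. Cytoplasmic actins Actg1 and Actb reached 732 and 689 CPM per kb, calponin 3 (Cnn3) 175 and calponin 2 (Cnn2) 39.2 CPM per kb. Vimentin (Vim), a relative of desmin, had 227 and non-muscle myosin heavy chain Myh9 62.1 CPM per kb. Each of these was above its smooth muscle counterpart by the same measure. Transgelin 2 (Tagln2), at 58.8 CPM per kb, was below Tagln. Myosin heavy chains Myh10 (20.2) and Myh14 (0.44) were below Myh11, and the light chain Myl12b (44.0) was below Myl9. Myl12a, at 116 CPM per kb, was below Myl9 but above it with the longest transcript (146 against 129).

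**Figure D1:**
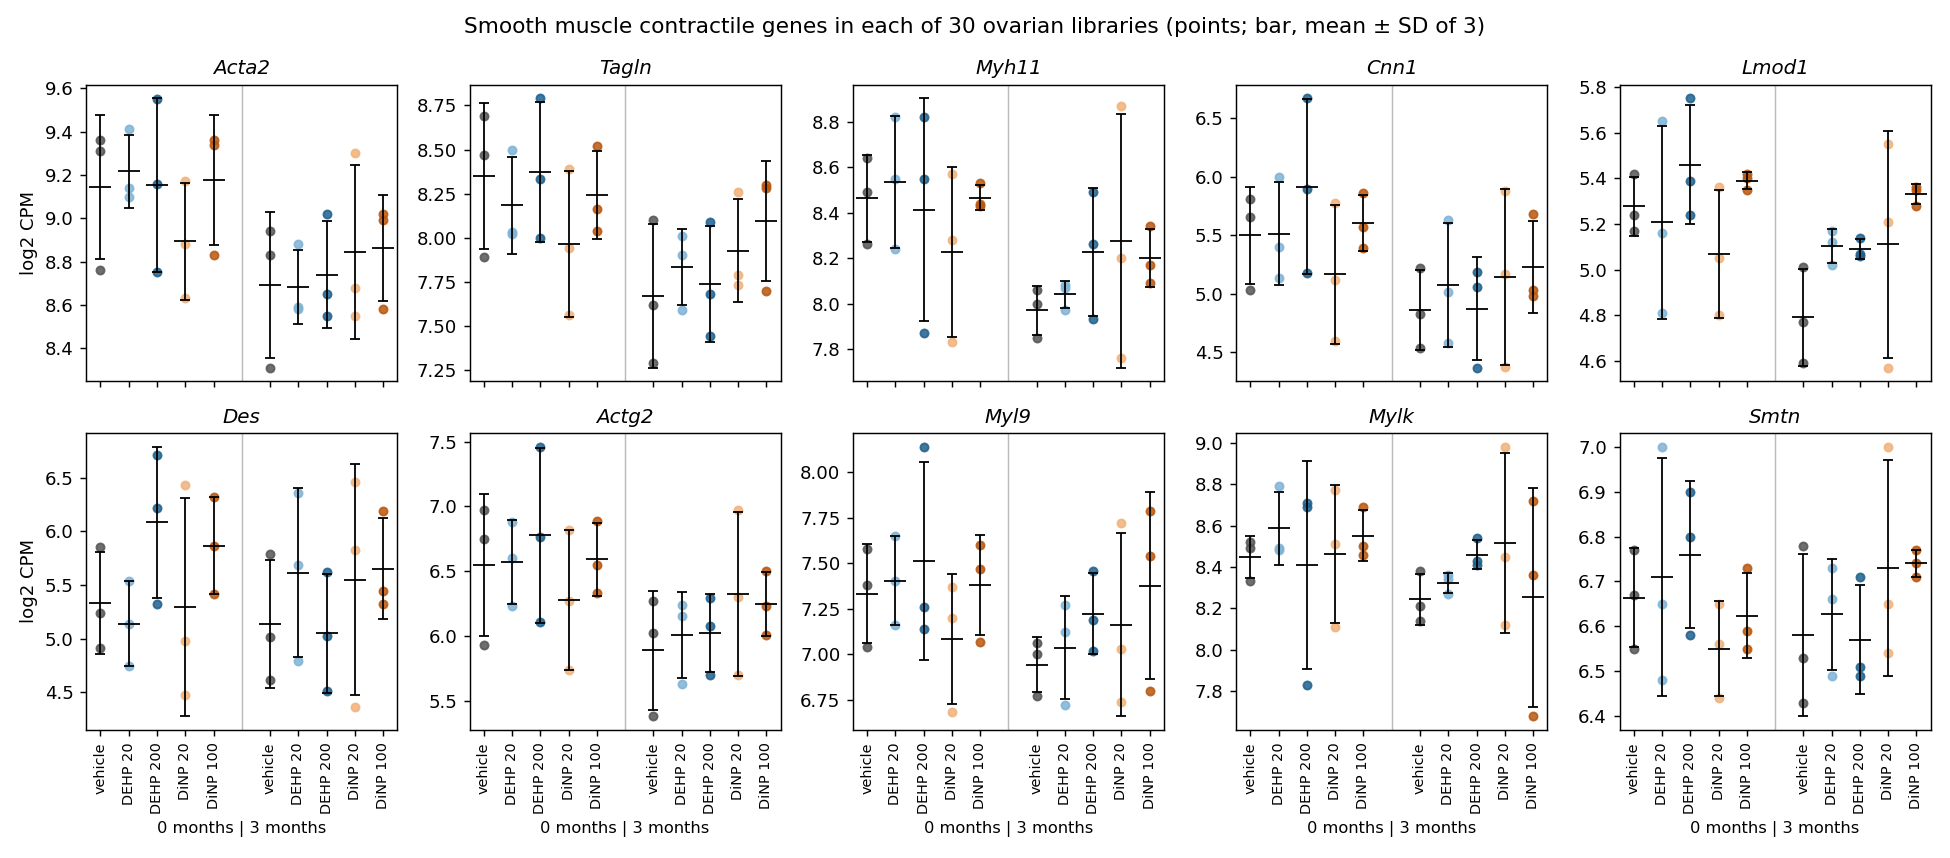
Log2 CPM of each gene (vertical axes, separate scales) in every library (points), by treatment in ug/kg/day at 0 months (left of the grey line) and 3 months (right), with the mean and SD of 3 libraries as bars. Libraries of a group lie far apart for Des and Cnn1 and close together for Smtn, and the groups overlap broadly.

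The genes differed in how far libraries of 1 group lay apart. Desmin was the most variable, with a within-group SD of 0.69 log2 CPM, and Cnn1 followed with 0.51 and Actg2 with 0.46. Myl9 had 0.36, Tagln 0.34, Acta2, Myh11 and Mylk 0.30 each, Lmod1 0.25 and Smtn 0.16. Over all 30 libraries Des ran from 4.36 to 6.71 log2 CPM, a 5.09-fold range. Smoothelin ran from 6.43 to 7.0, a 1.49-fold range. The ranges of Cnn1 (4.94-fold) and Actg2 (4.22-fold) were close to that of Des, and those of Tagln (2.83), Myl9 (2.75), Mylk (2.47), Acta2 (2.36), Lmod1 (2.26) and Myh11 (2.17) lay between. Replicate 3 of DEHP 200 at 0 months was the highest of all libraries for 7 of the 10 genes (Acta2, Tagln, Cnn1, Lmod1, Des, Actg2 and Myl9). In that library fat markers summed to 451 CPM and corpus luteum markers to 1150 CPM, the highest and lowest of all libraries, and their part in the muscle values was not tested. Replicate 2 of DiNP 20 at 3 months was the highest for Myh11 and Mylk.

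Acta2, the highest per kilobase, is given in every library. At 0 months its log2 CPM in replicates 1 to 3 was 9.36, 9.31 and 8.76 with vehicle, 9.41, 9.14 and 9.10 with DEHP 20, and 9.16, 8.75 and 9.55 with DEHP 200. DiNP 20 gave 8.88, 9.17 and 8.63, and DiNP 100 gave 9.36, 9.34 and 8.83. Each treated group overlapped the range of vehicle. At 3 months the values were 8.94, 8.83 and 8.31 with vehicle, 8.88, 8.59 and 8.58 with DEHP 20, and 8.65, 9.02 and 8.55 with DEHP 200. DiNP 20 gave 8.68, 9.30 and 8.55, and DiNP 100 gave 8.58, 9.02 and 8.99. Ordered by mean, the Acta2 groups ran from DEHP 20 at 3 months (8.68 ± 0.17, SD, n = 3) to DEHP 20 at 0 months (9.22 ± 0.16), the 5 groups at 3 months all below the 5 at 0 months. No pair of neighbours in that order was further apart than its SDs. For Tagln, Myh11, Lmod1, Actg2, Myl9 and Mylk the lowest group was vehicle at 3 months, with means of 7.67 ± 0.41, 7.97 ± 0.11, 4.79 ± 0.21, 5.89 ± 0.46, 6.94 ± 0.15 and 8.24 ± 0.12 log2 CPM. The highest group was DEHP 200 at 0 months for Tagln (8.37 ± 0.40), Cnn1 (5.92 ± 0.75), Lmod1 (5.46 ± 0.26), Des (6.08 ± 0.71), Actg2 (6.78 ± 0.67), Myl9 (7.51 ± 0.54) and Smtn (6.76 ± 0.16). That group held 2 of the 3 libraries standing apart.

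Libraries that were high for 1 of these genes tended to be high for the others. After each group's mean was subtracted, all 45 pairs of members correlated positively over the 30 libraries, with Pearson r from 0.45 to 0.95 and a median of 0.73. Calponin 1 followed Actg2 (r = 0.95) and Des (r = 0.92), and the actins Acta2 and Actg2 followed each other (r = 0.90). The lowest value, 0.45, joined Myl9 and Mylk, the light chain and its kinase. In replicate 3 of DiNP 100 at 3 months, which stood apart, they deviated in opposite directions (0.41 and -0.58 log2). Against the mean of the other nine, each scaled by its own spread, Actg2 reached 0.95, Cnn1 0.93 and Myh11 0.91. Acta2 had 0.85, Tagln and Myl9 0.84, Lmod1 and Des 0.80, and Smtn 0.77. Mylk followed least, at 0.65, which was 0.55 without the 2 libraries farthest from the middle, 0.83 within 0 months and 0.47 within 3 months. Those 2 were replicates 2 and 3 of DiNP 20 at 3 months, so replicate 3 of DiNP 100 was kept. In that library Mylk (-0.58), Myh11 (-0.11) and Smtn (-0.03) lay below their group means. Des (0.54), Cnn1 (0.45), Myl9 (0.41), Actg2 (0.25), Tagln (0.19), Acta2 (0.12) and Lmod1 (0.02) lay above. Correlations without it were not computed. All points share their library, its scaling and its dissection, and these values are descriptions of the 30 libraries.

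**Figure D2:**
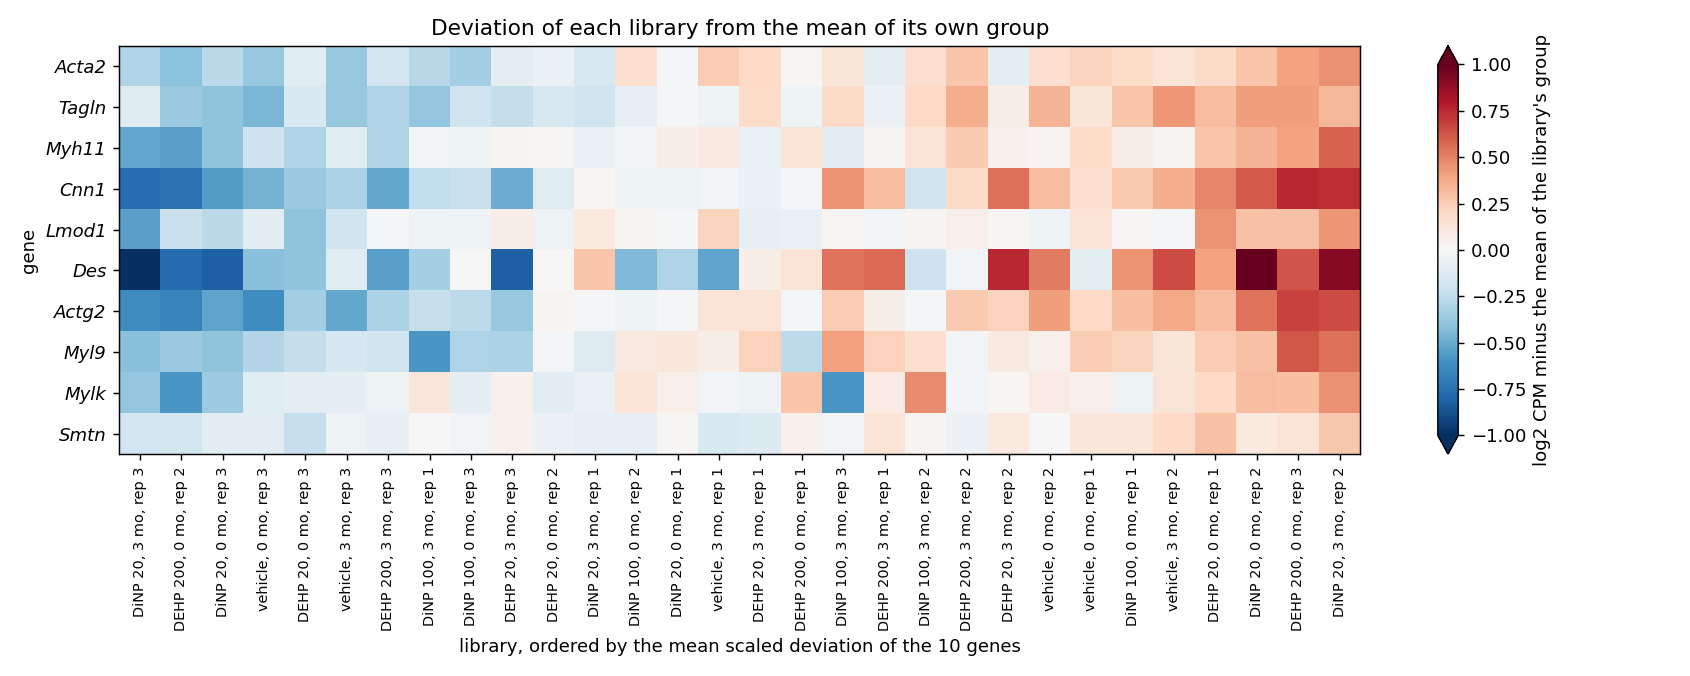
Deviation of every library (columns) from the mean of its own group, in log2 CPM, for each gene (one line of cells each); red is above and blue below the group mean, and colours beyond 1 and -1 are not graded further. Columns run from the libraries where the 10 genes are jointly lowest to those where they are jointly highest, and the outermost columns are of 1 colour throughout.

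The mean scaled deviation of the 10 genes marked the libraries at the ends. It was 1.51 SD in replicate 2 and -1.35 SD in replicate 3 of DiNP 20 at 3 months, 1.25 in replicate 3 and -1.32 in replicate 2 of DEHP 200 at 0 months, and 1.09 in replicate 2 and -1.09 in replicate 3 of DiNP 20 at 0 months. Deviations within a group cancel by construction, so a library far above its group mean comes with others below it. In DiNP 20 at 3 months Des was 5.83, 6.46 and 4.36 log2 CPM in replicates 1 to 3, and Cnn1 was 5.17, 5.88 and 4.38. In DEHP 200 at 0 months Des was 6.22, 5.32 and 6.71 and Cnn1 5.90, 5.18 and 6.67. Summed over the 10 genes, the 3 libraries of DiNP 20 at 3 months ran from 1409 to 2569 CPM and those of DEHP 200 at 0 months from 1568 to 2901 CPM. In whole-ovary RNA, fewer smooth muscle cells and less of this RNA per cell cannot be told apart.

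Of 14722 other genes compared with the joint deviation of the 10, the median r was 0, and values at the 5th and 95th percentiles were -0.42 and 0.42. Only 29 of them exceeded 0.7. The 10 most alike were led by Csrp1 (r = 0.92), a LIM protein of smooth muscle, and Tpm2 (0.86), the beta-tropomyosin. Asb2 (0.86), Jph2 (0.83), Ogn (0.83), Id4 (0.82), Pdlim3 (0.82), Tspan2 (0.81), Myom1 (0.81) and Mmp17 (0.79) followed. Asb2 targets filamins for degradation, Jph2 ties the plasma membrane to the sarcoplasmic reticulum, Ogn is a matrix proteoglycan, Id4 an inhibitor of bHLH factors, Pdlim3 an actinin-binding protein, Myom1 a sarcomere protein and Mmp17 a membrane-bound protease. The 3 least alike were B230208H11Rik (-0.75), Cyb5rl (-0.74) and Vps26a (-0.71). Of the 10 most alike over all libraries, 5 were also among the 10 most alike within the 15 libraries of 0 months and 2 within the 15 of 3 months.

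The other genes of contraction followed the 10 to different degrees. Among 24 tested contractile and anchoring genes outside the 10 (tropomyosins, caldesmon, integrins, actinin-binding proteins), the median r was 0.45, and 12 lay above the 95th percentile of all genes. Csrp1 was highest in that list. The 14 genes of smooth muscle transcription and differentiation had a median of 0.17, from Notch3 (-0.44) to Myocd (0.38), and 0 of them lay above the 95th percentile. The 19 tested genes of contraction signalling had a median of -0.04, from Oxtr, the oxytocin receptor (-0.49), to Ppp1r12a, a subunit of myosin phosphatase (0.58), with 3 above the 95th percentile. For the 12 non-muscle relatives the median was 0.10, from Tagln2 (-0.38) to Cnn2 (0.50), and 1 lay above it.

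**Figure D3:**
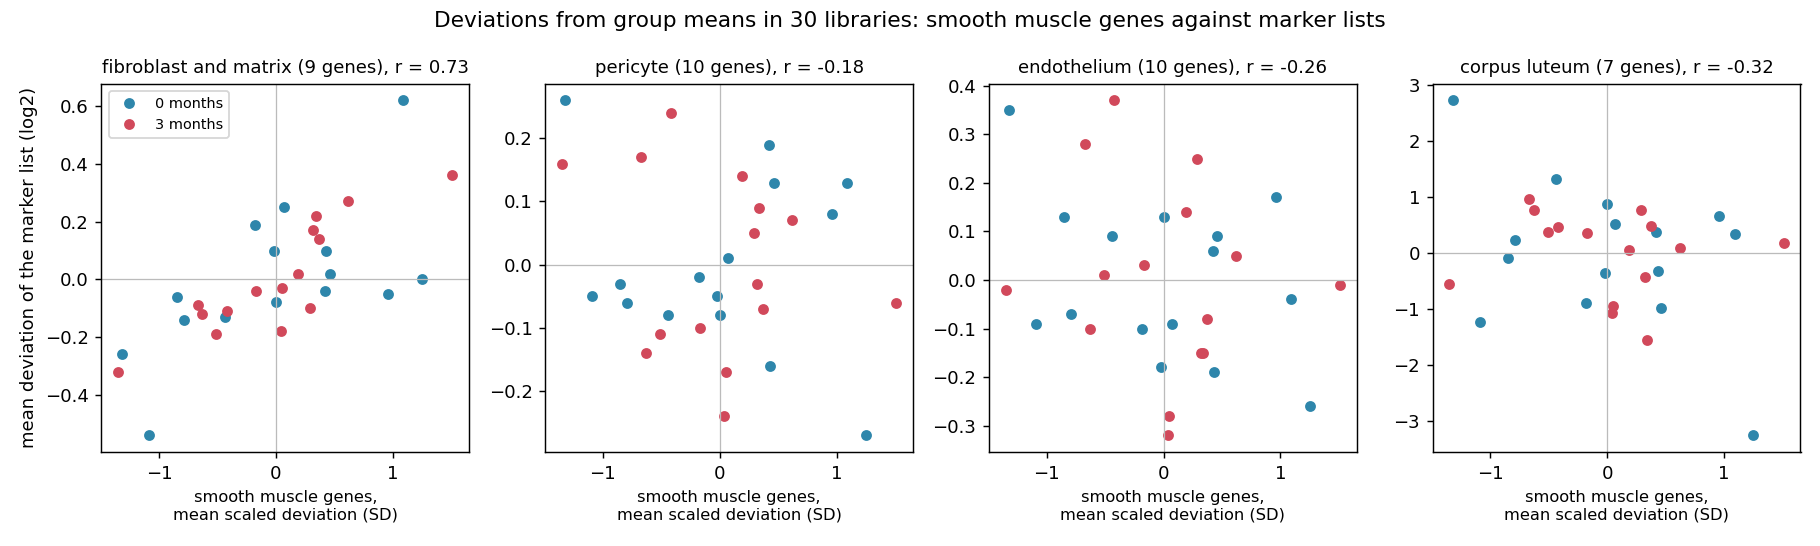
Mean deviation of 4 marker lists (vertical axes, log2) against the mean scaled deviation of the 10 smooth muscle genes (horizontal axes, SD) in 30 libraries, blue for 0 and red for 3 months. Points of the fibroblast and matrix list climb from left to right (r = 0.73), and those of pericyte (-0.18), endothelium (-0.26) and corpus luteum (-0.32) slope slightly downward. The lists not drawn all had positive r, from 0.32 (theca) to 0.50 (fat).

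Marker lists of other ovarian cells were set beside the joint deviation of the 10. The mean of the fibroblast and matrix markers (9 genes, all listed) had r = 0.73 over the 30 libraries, 0.63 within 0 months and 0.88 within 3 months. Single genes ran from Fn1 (0.04) to Postn (0.75). Between them were Col3a1 (0.05), Pdgfra (0.17), Col1a1 (0.32), Col1a2 (0.39), Lum (0.43), Dcn (0.57) and Dpt (0.61). List means were taken without scaling each gene, so the more variable Dpt and Postn (within-group SD 0.92 and 0.72) weigh more. Granulosa markers had 0.36 over all libraries, with 0.78 within 0 months and -0.04 within 3 months. Mesothelium markers stood at 0.48 (0.16 and 0.82 within the time points) and fat markers at 0.50 (0.34 and 0.72), so the order of the lists differed between the time points. Striated muscle (0.43), oviduct (0.33) and theca (0.32) markers were positive within both. The striated muscle and oviduct values rest on 3 tested genes each, and the striated genes ran from Mylpf (-0.03) to Tnnt2 (0.62). Pericyte markers, which mark the mural cells of small vessels, stood at -0.18, with 4 of 10 genes positive and a range from Rgs5 (-0.49) to Kcnj8 (0.27), and endothelial markers at -0.26. Corpus luteum markers stood at -0.32 (-0.42 within 0 months and -0.12 within 3 months). In that list 0 of 7 genes were positive, from Lhcgr, the luteinizing hormone receptor (-0.55), to Akr1c18 (-0.12). Akr1c18, with a within-group SD of 3.23, weighs most in the list mean. Striated muscle was nearly absent: 4 of its 10 markers (Acta1, Myh1, Myh2 and Myh4) were not among the listed genes, Ckm, Tnnt3 and Myh6 had medians at or under 0 log2 CPM, and the listed 6 summed to 6.1 to 17.5 CPM. The 6 listed oviduct markers summed to 2.8 to 18.3 CPM at 0 months and 4.21 to 168 CPM at 3 months. The part of these cell types in the muscle values was not tested.

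At 0 months, no member was called with any treatment. By limma, 0 of 10 members were called (adjusted p under 0.05) in each of the 4 comparisons with vehicle, where 0% of all genes were called. At an unadjusted p under 0.05 there were 0 members, against 2.37% of 14740 genes for DEHP 20, 5.02% for DEHP 200, 2.08% for DiNP 20 and 1.75% for DiNP 100. The median log2 fold change of the 10 was 0.04 for DEHP 20, 0.14 for DEHP 200, -0.24 for DiNP 20 and 0.04 for DiNP 100, where medians over all genes were 0.005, -0.002, -0.001 and 0.013. With DEHP 20, the smallest p belonged to Tagln, at -0.17 ± 0.27 (log2 fold change ± SE, limma adjusted p = 1). Its values with DEHP 20 were 8.50, 8.02 and 8.03 log2 CPM, and with vehicle 8.47, 8.69 and 7.89. These groups overlapped, and without vehicle replicate 2 the difference was 0.

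With DEHP 200, Des came nearest to a difference. It read 6.22, 5.32 and 6.71 log2 CPM against 5.24, 5.85 and 4.91 with vehicle, and the groups overlapped. The log2 fold change was 0.75 ± 0.53 (95% interval -0.35 to 1.85, limma adjusted p = 0.914). It was 0.43 without replicate 3 and 1.13 without replicate 2 of DEHP 200. With all libraries standing apart left out it was 0.89, which rests on replicate 1 as the only DEHP 200 library left. The median over the 10 was -0.12 without replicate 3 of DEHP 200 and 0.28 without replicate 2. With DiNP 20, 9 of 10 members, which vary together between libraries, had lower means than with vehicle. They were led by Tagln with 7.94, 8.39 and 7.56 log2 CPM (-0.39 ± 0.27, limma adjusted p = 1). The DiNP 20 values of Tagln all lay within or below the range of vehicle. Without replicate 3 of DiNP 20 the median over the 10 was -0.05 in place of -0.24, and Tagln was at -0.18. With DiNP 100, Des had 6.32, 5.42 and 5.86 log2 CPM and the smallest p (0.53 ± 0.53, limma adjusted p = 1). Taking the 4 treated groups together, the median of the 10 was 0.01, and Tagln had the smallest p (-0.16 ± 0.21, limma adjusted p = 1) with 0 members and 0% of genes called, and 0.01 without vehicle replicate 2.

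At 3 months no member was called with any treatment either. By limma, 0 of 10 members and 0% of genes were called against vehicle at each dose. At an unadjusted p under 0.05, members numbered 0 with DEHP 20, DEHP 200 and DiNP 20, against 1.68%, 1.44% and 1.52% of genes, and 1 with DiNP 100 against 9.28% of genes. That 1 was Lmod1, the actin filament nucleator. Its values were 5.28, 5.36 and 5.35 log2 CPM with DiNP 100 and 5.01, 4.77 and 4.59 with vehicle, so the groups did not overlap. The share of all genes whose groups separate in this way was not counted. The log2 fold change was 0.54 ± 0.20 (95% interval 0.12 to 0.95, unadjusted p = 0.0137, limma adjusted p = 0.518). It was 0.53 ± 0.23 without the libraries standing apart, 1 of which is replicate 3 of DiNP 100.

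Lmod1 also had the smallest p in the other 3 comparisons at 3 months. It read 5.02, 5.12 and 5.17 log2 CPM with DEHP 20 (0.31 ± 0.20), 5.06, 5.14 and 5.07 with DEHP 200 (0.29 ± 0.20) and 5.21, 5.55 and 4.57 with DiNP 20 (0.32 ± 0.20), each with a limma adjusted p of 1. Values with both DEHP doses lay above all 3 vehicle values, for DEHP 20 narrowly (5.02 against 5.01), and those with DiNP 20 spanned them. The share of all genes doing so was not counted here either. These comparisons share their 3 vehicle libraries. Over the 10 genes the median was 0.10 with either DEHP dose, 0.28 with DiNP 20 and 0.36 with DiNP 100, and all 10 means were higher with each DiNP dose, where 49.7% and 48.5% of all genes were lower. Single libraries moved these medians: DiNP 20 went to 0.01 without its replicate 2, DEHP 200 to -0.08 and DiNP 100 to 0.19 without vehicle replicate 3. For DiNP 100 the median was 0.24 without the libraries standing apart and -0.04 with array weights, which count each library by how well it fits its group. Over the 4 treated groups jointly the median was 0.22, and Lmod1 had 0.36 ± 0.16 (unadjusted p = 0.031, limma adjusted p = 1), with 0 members and 0% of genes called. Of all genes 1.15% had an unadjusted p under 0.05 by limma there, and Lmod1 was at 0.26 without vehicle replicate 3.

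**Figure D4:**
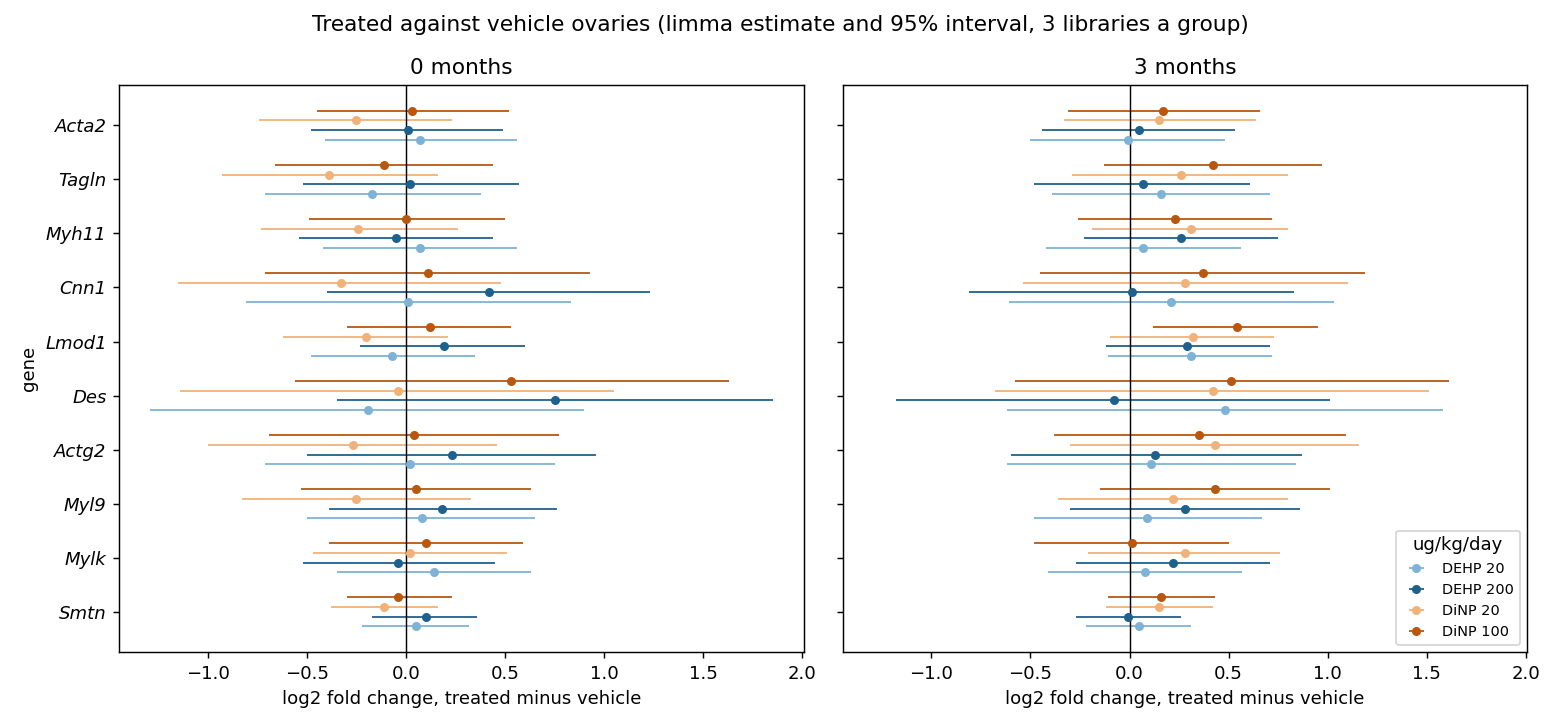
Log2 fold change of each treated group over vehicle (horizontal axes; points, limma estimates; lines, 95% intervals) for each gene at 0 months (left) and 3 months (right), 3 libraries a group. Of 80 intervals 79 include 0; the other is Lmod1 with DiNP 100 at 3 months (0.12 to 0.95).

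The width of these intervals shows what 3 libraries a group could resolve. The SE of a treated group against vehicle was 0.13 for Smtn, 0.20 for Lmod1, 0.23 for Acta2, 0.24 for Myh11 and Mylk, 0.27 for Tagln and 0.28 for Myl9. It was 0.35 for Actg2, 0.40 for Cnn1 and 0.53 for Des. For Smtn the intervals over the 8 comparisons lay between -0.38 and 0.43, and for Des between -1.29 and 1.85. Joint tests over the 4 treatments called 0 members and 0% of genes at each time. Their smallest p was that of Des at 0 months (unadjusted p = 0.345, limma adjusted p = 1) and Lmod1 at 3 months (0.161, limma adjusted p = 0.957), and at an unadjusted p under 0.05 they took 0 members against 2.2% and 3.99% of genes.

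DEHP and DiNP, which differ in the alcohols esterified to the same phthalate core, shared only the dose of 20 ug/kg/day. At that dose 0 of 10 members and 0% of genes differed by limma at either time, with 0 members under an unadjusted p of 0.05 against 2.05% of genes at 0 months and 2.9% at 3 months. The median of DEHP minus DiNP was 0.26 log2 at 0 months and -0.11 at 3 months. It was 0.05 at 0 months without replicate 3 of DiNP 20 and 0.07 at 3 months without replicate 2 of DiNP 20. Acta2 had the smallest p at 0 months, with 9.41, 9.14 and 9.10 log2 CPM on DEHP and 8.88, 9.17 and 8.63 on DiNP. The difference was 0.32 ± 0.23 (95% interval -0.16 to 0.81, limma adjusted p = 1). At 3 months Myh11 had the smallest p (-0.24 ± 0.24, 95% interval -0.73 to 0.25, limma adjusted p = 1), with 7.97, 8.08 and 8.07 log2 CPM on DEHP and 8.20, 8.87 and 7.76 on DiNP. Without replicate 2 of DiNP 20, the library jointly highest for the 10 genes, that difference was 0.06. All 20 intervals include 0, and they leave room for differences of the size shown, so they do not show that the compounds act alike.

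Between doses of 1 compound, 0 of 10 members and 0% of genes were called in each of the 4 limma comparisons, and 0 members had an unadjusted p under 0.05. The share of all genes under that p was 3.95% for DEHP and 0.583% for DiNP at 0 months, and 0.957% for DEHP and 12.2% for DiNP at 3 months. Desmin differed most between the DEHP doses at 0 months, with 6.22, 5.32 and 6.71 log2 CPM at 200 and 5.54, 5.14 and 4.74 at 20 ug/kg/day (0.94 ± 0.53, limma adjusted p = 0.945). Leaving out single libraries gave 0.63 to 1.32. With the libraries standing apart left out it was 1.08, which rests on replicate 1 as the only library left at 200 ug/kg/day. At 3 months the sign for Des was the other way (-0.56 ± 0.53, limma adjusted p = 1). For DiNP at 0 months all 10 means were higher at 100 than at 20 ug/kg/day (median 0.29, and 0.08 without replicate 3 of DiNP 20), and Lmod1 had the smallest p (0.32 ± 0.20, limma adjusted p = 1). At 3 months it was Mylk, the kinase (-0.26 ± 0.24, limma adjusted p = 0.637), with 8.36, 8.72 and 7.68 log2 CPM at 100 and 8.45, 8.98 and 8.12 at 20 ug/kg/day. Without replicate 3 of DiNP 100, which stood apart, the difference in Mylk was 0.02.

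Between the time points, 4 of the 10 genes fell over the 5 arms (vehicle and 4 treatments) together: Acta2, Tagln, Cnn1 and Actg2, the actins and a pair of actin-binding proteins. None rose. Over all genes 9.63% were called lower and 10.6% higher, 20.3% in all, and 6 members had an unadjusted p under 0.05 where 35.1% of genes did. All 10 means were lower at 3 months, with a median of -0.24 log2, where the median over all genes was 0.003 and 49.3% of genes were lower. The labels give age only as adult, and time after dosing and age at collection cannot be told apart. Any difference in collection or library preparation between the time points cannot be told apart from these either.

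Acta2 ran from 8.63 to 9.55 log2 CPM (median 9.16, n = 15) at 0 months and from 8.31 to 9.30 (median 8.68, n = 15) at 3 months. The ranges overlapped, but 14 of the 15 libraries at 3 months lay below the median of 0 months, and the mean was lower in 5 of 5 arms. The log2 fold change was -0.35 ± 0.10 (1.28-fold lower, limma adjusted p = 0.0221). Tagln went from 8.22 ± 0.34 (SD, n = 15) to 7.85 ± 0.31, with 12 of 15 libraries below the earlier median and lower means in 5 of 5 arms. Its log2 fold change was -0.37 ± 0.12 (limma adjusted p = 0.0309). Actg2 went from 6.55 ± 0.45 to 6.10 ± 0.39, with 14 of 15 libraries below the earlier median and lower means in 4 of 5 arms. Its log2 fold change was -0.45 ± 0.16 (limma adjusted p = 0.0453). Cnn1 changed most in size, from 5.54 ± 0.50 to 5.04 ± 0.46 (-0.50 ± 0.18, 1.42-fold lower, limma adjusted p = 0.0472), with 12 of 15 libraries below the earlier median.

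These calls lay near the threshold. With any 1 of the 30 libraries left out, the number of members called ran from 1 to 5. Acta2 was called in 30 of the 30 fits, Tagln in 20, Actg2 in 12 and Cnn1 in 11. Only Acta2 remained called in the 10 fits without vehicle replicate 1, 2 (0 months) or 3 (3 months), replicate 3 of DEHP 200 at either time, replicate 2 (0 months) or 1 (3 months) of DiNP 20, replicate 1 of DiNP 100 at either time, or replicate 3 of DEHP 20 at 3 months. Both Actg2 and Cnn1 were lost in the 6 fits without replicate 1 or 2 of DEHP 20, replicate 1 of DEHP 200, replicate 1 of DiNP 20 or replicate 2 of DiNP 100 at 0 months, or replicate 3 of DiNP 20 at 3 months. At 3 months Actg2 was lost without replicate 2 of DEHP 20 or replicate 1 of DEHP 200, and Cnn1 without replicate 1 of DEHP 20, replicate 1 of vehicle or replicate 2 of DiNP 100. Without the 3 libraries standing apart all 4 genes were called, at -0.37 for Acta2, -0.38 for Tagln, -0.48 for Actg2 and -0.55 for Cnn1. The other 6 genes did not pass. Myh11 was at -0.28 ± 0.11 (limma adjusted p = 0.0659) and passed in 4 of the 30 fits, those without replicate 2 of DEHP 200 at either time, replicate 3 of DiNP 20 at 0 months or its replicate 2 at 3 months. Lmod1 was at -0.20 ± 0.09 (0.12), Myl9 at -0.19 ± 0.12 (0.283), Des at -0.14 ± 0.24 (0.704), Mylk at -0.13 ± 0.11 (0.391) and Smtn at -0.01 ± 0.06 (0.902).

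**Figure D5:**
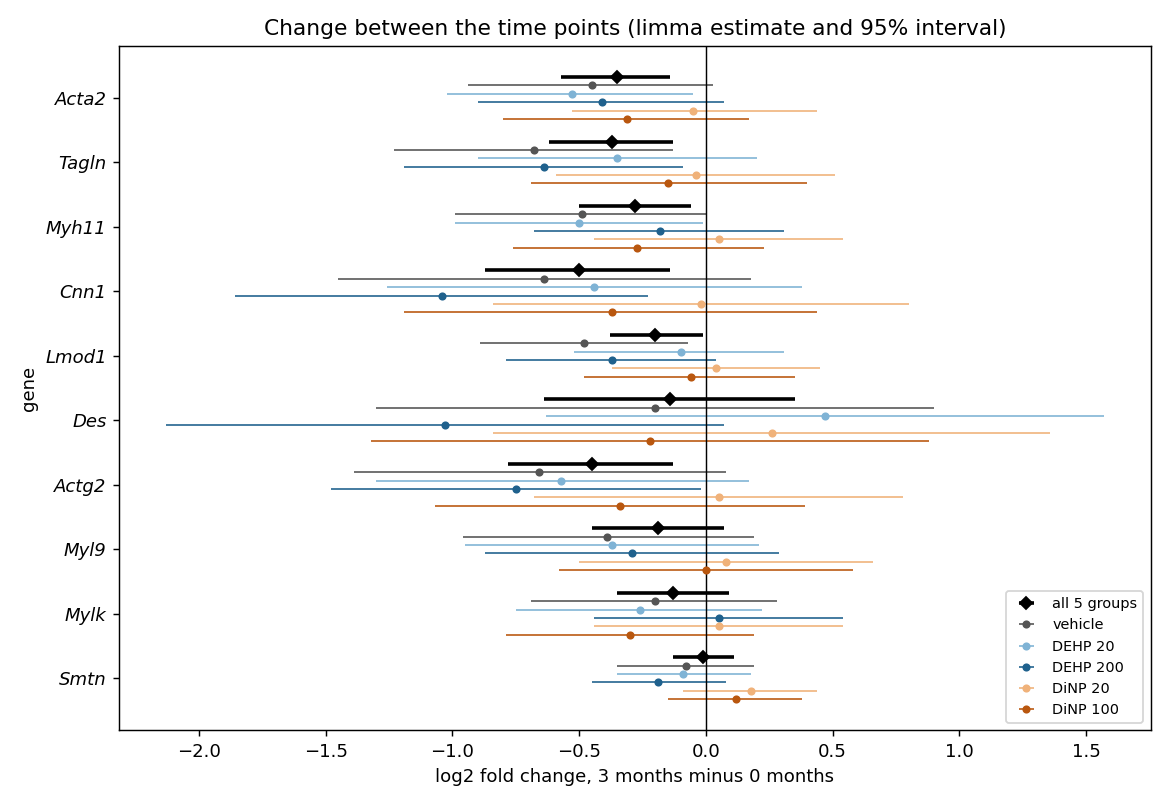
Log2 fold change from 0 to 3 months (horizontal axis; limma estimates with 95% intervals) for each gene, over all 5 arms (black diamonds) and within vehicle, DEHP 20, DEHP 200, DiNP 20 and DiNP 100 (coloured points). The estimates over all arms run from -0.50 (Cnn1) to -0.01 (Smtn), and those of DiNP 20 from -0.05 to 0.26.

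Within single arms the limma tests called 0 of the 10 members, and between 1 and 7 of all genes. The share of genes called was 0.00678% in vehicle ovaries, 0.0204% at the DEHP dose of 20, 0.0136% at 200, 0.0204% at the DiNP dose of 20 and 0.0475% at 100. In vehicle ovaries all 10 means were lower at 3 months, with a median of -0.47 log2, and 3 members had an unadjusted p under 0.05 (7.98% of genes). Tagln had the smallest p, from 8.47, 8.69 and 7.89 to 7.62, 8.10 and 7.29 log2 CPM (-0.68 ± 0.27, limma adjusted p = 0.603). Lmod1 went from 5.42, 5.24 and 5.17 to 5.01, 4.77 and 4.59 (-0.48 ± 0.20, limma adjusted p = 0.622), and Myh11 from 8.64, 8.49 and 8.26 to 8.06, 8.0 and 7.85 (-0.49 ± 0.24, limma adjusted p = 0.623). For Lmod1 and Myh11 the vehicle groups did not overlap, and for Tagln they did. How many of all genes separate in this way was not counted.

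With DEHP 20 the median of the 10 was -0.36, and Acta2 had the smallest p (-0.53 ± 0.23, limma adjusted p = 0.427), with 2 members under an unadjusted p of 0.05 against 10.8% of genes. With DEHP 200 it was -0.39, and Cnn1 had the smallest p, from 5.90, 5.18 and 6.67 to 5.19, 5.06 and 4.37 log2 CPM (-1.04 ± 0.40, limma adjusted p = 0.365), with 3 members against 11.7% of genes. Without replicate 3 of DEHP 200 at 0 months the median was -0.22 and Cnn1 was at -0.67. With the libraries standing apart left out they were -0.37 and -1.03, with replicate 1 as the only DEHP 200 library left at 0 months. With DiNP 20 the median was 0.05 and Smtn had the smallest p (0.18 ± 0.13, limma adjusted p = 0.816), with 0 members against 7.75% of genes. That median was -0.20 without replicate 2 of DiNP 20 at 3 months and 0.30 without replicate 3. With DiNP 100 it was -0.24, and Acta2 had the smallest p (-0.31 ± 0.23, limma adjusted p = 0.441), with 0 members against 18.9% of genes. Whether the change over time differed between arms was tested directly: 0 members and 0% of genes were called, the smallest member p was that of Smtn (unadjusted p = 0.271, limma adjusted p = 1), and 2.64% of genes had an unadjusted p under 0.05.

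Among other contractile and anchoring genes, 4 of 24 tested fell between the time points and 0 rose, with a median of -0.10, where 9.63% of all genes were called lower and 10.6% higher. They were Itga7, a laminin-binding integrin subunit (-0.41 ± 0.08, limma adjusted p = 0.00216), Tpm2 (-0.37 ± 0.11, 0.0221), Pgm5, a component of muscle adhesion sites (-0.44 ± 0.14, 0.0276), and Kcnmb1, a subunit of the calcium-activated potassium channel (-0.39 ± 0.13, 0.034). Csrp1, the gene most like the 10, was at -0.13 ± 0.09 (0.318). Of the 14 genes of transcription and differentiation, Gata6 fell (-0.33 ± 0.09, 0.0127) and Tgfb1 rose (0.49 ± 0.17, 0.0478), and the median was -0.08. The regulators that act at CArG boxes did not pass: Srf was at -0.05 ± 0.05 (0.57), Myocd, encoding myocardin, at -0.32 ± 0.16 (0.148), and the myocardin-related factors Mkl1 at 0.12 ± 0.05 (0.128) and Mkl2 at -0.04 ± 0.09 (0.811).

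Contraction signalling went both ways, with 4 of 19 tested genes called higher and 2 lower at 3 months, beside 10.6% and 9.63% of all genes. Rock2, a kinase that promotes contraction (0.28 ± 0.08, limma adjusted p = 0.0177), Itpr1, a calcium release channel (0.32 ± 0.09, 0.0185), Adra1a, an alpha-1 adrenergic receptor (0.77 ± 0.26, 0.0397), and Pde5a, which degrades cyclic GMP (0.28 ± 0.10, 0.0487), rose. Gucy1a1 (-0.24 ± 0.07, 0.0202) and Gucy1b1 (-0.23 ± 0.08, 0.0333), the subunits of the nitric oxide receptor guanylate cyclase, fell. Of 12 non-muscle relatives 1 fell, the myosin heavy chain Myh10 (-0.25 ± 0.07, 0.0178), and 0 rose. Myh9 was at 0.22 ± 0.08 (0.0555) and Myl12a at 0.16 ± 0.06 (0.0551).

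Markers of other ovarian cells were tested over the same interval, in which 9.63% of all genes were called lower and 10.6% higher. Granulosa markers fell in 6 of 7 genes (median -0.54), led by Inhba, the inhibin beta-A subunit (-1.07 ± 0.19, limma adjusted p = 0.00104), with Inha (-0.51 ± 0.12, 0.00606), Hsd17b1 (-0.54 ± 0.14, 0.0116) and Amh (-0.57 ± 0.17, 0.0218). Theca markers fell in 4 of 7 (median -0.34): Fbln5 (-0.34 ± 0.07, 0.0042), Gli1 (-0.44 ± 0.13, 0.0177), Ptch1 (-0.29 ± 0.09, 0.0269) and Insl3 (-0.90 ± 0.29, 0.03). Fibroblast and matrix markers fell in 5 of 9 and rose in 1 (median -0.23), with Fn1 (-0.60 ± 0.13, 0.0041), Dpt (-1.43 ± 0.32, 0.00422), Col1a2 (-0.34 ± 0.08, 0.00673) and the riser Pdgfra (0.42 ± 0.09, 0.0048). Summed, they had a median of 4320 CPM at 0 and 3770 CPM at 3 months. Corpus luteum markers had a median sum of 11800 CPM at 0 months (1150 to 33800) and 27600 CPM at 3 months (6170 to 41100). Akr1c18, which inactivates progesterone, rose (3.43 ± 1.10, 0.0318), and the other 6 of 7 did not pass.

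Of 10 pericyte markers 1 fell, Mcam (-0.27 ± 0.08, limma adjusted p = 0.0218), and 0 rose, with sums of 504 CPM at 0 and 507 CPM at 3 months (medians). Of 10 endothelial markers 0 were called by limma, with 3 under an unadjusted p of 0.05, beside 35.1% of all genes, and Tek (0.23 ± 0.09, 0.0716) and Kdr (0.30 ± 0.13, 0.0998) nearest. Their sums had medians of 523 and 562 CPM. The summed level of the 10 smooth muscle genes had a median of 2191 CPM at 0 months (1405 to 2901) and 1708 CPM at 3 months (1309 to 2569). No marker of mesothelium, fat, striated muscle or oviduct was called by limma. The nearest were Msln (-0.50 ± 0.23, 0.117) and Wt1 (-0.10 ± 0.10, 0.48) of mesothelium, Foxj1 (1.22 ± 0.55, 0.12) and Ovgp1 (0.97 ± 0.50, 0.17) of oviduct, Actn3 (-0.35 ± 0.18, 0.175) and Mylpf (0.21 ± 0.14, 0.306) of striated muscle, and Cfd (-0.83 ± 0.64, 0.377) and Cidec (-0.72 ± 0.65, 0.457) of fat. Under an unadjusted p of 0.05 were 1 mesothelial and 1 oviduct gene. These values are relative within each library, and the part of these cell types in the lower smooth muscle values was not tested.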

How the data were processed

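Whole-ovary RNA was made into stranded mRNA libraries and sequenced as single reads of 101 cycles, per the labels' protocols. Per the submitters' processing notes the tools were FastQC 0.11.8, Salmon 0.11.3, edgeR (no version) and R 3.5.2, with GRCm38.p6. The authors deposited log2 CPM for 18022 genes in 30 libraries, with a lowest value of -3.343, and these were used as they stand. Approximate depths, which carry the scaling of the deposited values, were read from the smallest steps between values. Since no counts are given, linear models were used: limma 3.58.1 (R 4.3.3, statmod 1.5.0), 1 mean per group over 30 libraries, with a variance trend, on 14740 genes with mean log2 CPM above 0. The fit had 20 residual degrees of freedom. Benjamini-Hochberg adjustment ran over all genes within each of 25 comparisons, 3 of them F tests. A gene was called at an adjusted p under 0.05. Fold changes are differences of log2 CPM, and ± after one is its SE.

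The 10 members and 16 gene lists were chosen with earlier results of these data known. Named are all members, the member with the smallest p in each comparison, the 10 most and 3 least alike genes, and from each list the called genes (at most 4) or the 2 with the smallest p. The lists have Mrtfa and Mrtfb as Mkl1 and Mkl2. A few genes were named outside this rule after their values were seen: Csrp1, Myh9 and Myl12a over time, and the relatives given per kilobase. Exon lengths come from GENCODE M21 and promoters from RefSeq. Alternatives were median centring, quantile normalization, filters of none or 2 log2 CPM, log2(CPM + 1), no trend, array weights, each time point alone, a replicate block, and leaving out each library. Leaving out the 3 libraries standing apart was added after seeing the data. The value of 1 list gene is not reported here.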

Additional observations from a re-analysis of the deposited data

How the results depend on the processing

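Over all ovaries at 3 against 0 months, 4 members were called, and 2 without the variance trend, where the adjusted p was 0.0518 for Cnn1 and 0.0503 for Actg2. Leaving out each library gave 1 to 5 members, and adjusted p for Acta2 of 0.00749 to 0.045. Over the 9 other settings the adjusted p ranged from 0.000764 to 0.0284 for Acta2, 0.00487 to 0.0445 for Tagln, 0.0136 to 0.0518 for Cnn1 and 0.0106 to 0.0503 for Actg2. Myh11 passed with quantile normalization (0.0394) and array weights (0.00755), and Myl9 with array weights (0.0481).

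With array weights the median of the members for DiNP 100 against vehicle at 3 months was -0.04 in place of 0.36, and the library standing apart in DiNP 100 had the lowest weight, 0.198. Smtn over all ovaries was 0.03 with array weights and -0.04 to 0.02 without single libraries. Mylk for DiNP 100 against DiNP 20 at 3 months was 0.02 without the 3 libraries standing apart, and -0.50 to 0.02 without single libraries. Without single libraries, Tagln for DEHP 20 against vehicle at 0 months ran from -0.40 to 0, Tagln for all treated against vehicle at 0 months from -0.39 to 0.01, and Myh11 for DEHP 20 against DiNP 20 at 3 months from -0.50 to 0.06. None of these was called at any of these settings, and the cause was not tested. Counts of members called were 0 for every treatment, dose and single-arm comparison at every setting run.

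With the replicate number as a block within each time point, 4 members were called over all ovaries (adjusted p of 0.0223 for Acta2, 0.0241 for Tagln, 0.0447 for Cnn1 and 0.0369 for Actg2), and no other call of a member changed. The labels do not say that numbers pair libraries, deviations of same-numbered libraries correlated at -0.45 to 0.39, and 10 of 30 libraries correlated best with their own number. Of the 10 genes most alike, 5 were shared with 0 months alone and 2 with 3 months alone. The largest absolute median log2 fold change over all genes at any setting was 0.026. With 3 libraries a group, SEs of 0.13 to 0.53 log2 limit what could be called.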
